A study of Mus musculus with 9 samples.

Results

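KO embryoid bodies were compared with KO cells in pluripotent culture, 4 of the 9 RNA-seq libraries of a study of Hbxip-/- mouse embryonic stem cells. They were the 2 libraries titled as KO embryoid bodies and the 2 titled as KO in pluripotent culture. Embryoid bodies are aggregates in which embryonic stem cells leave self-renewal and begin to form the germ layers. The parent line is E14, of strain 129, and both groups carry the same Hbxip-/- genotype, so the contrast is between cultures and not between genotypes. The study also holds 1 wild-type (WT) embryoid body library, 1 WT pluripotent library, and 1 WT and 2 KO libraries taken on day 4 after 96 h without LIF. The age of the embryoid bodies, the number of KO clones and whether the replicates were separate cultures are not given in the sources used here. The p-values therefore measure only the spread between these libraries, which may be technical.

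Hbxip, now named Lamtor5, encodes a subunit of Ragulator, the complex that anchors the Rag GTPases on the lysosome surface, where amino acids activate the kinase mTORC1. Mouse embryonic stem cells are kept naive by LIF, which acts through STAT3. When they leave this state they pass through a formative phase marked by Otx2, Fgf5 and the de novo DNA methyltransferases, and then take up primitive streak, endoderm or neural fates. The Rag-Ragulator machinery also recruits the transcription factors TFE3 and TFEB to the lysosome, and these factors act on lysosomal genes.

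Rounded counts summed to 10276477 and 10604073 in the KO embryoid body libraries and to 10345661 and 10147277 in the KO pluripotent libraries. The first principal component of all 9 libraries carried 51.5% of the variance. It placed the KO embryoid bodies at -11.4 and -16.8, against 86.5 and 74.5 for the KO pluripotent libraries, while the 5 other libraries lay between -64.6 and 11.5. The pluripotent libraries that serve as the baseline here thus stood apart from the rest of the study on this component. No fit without both of them is possible. On the second component, with 19.4% of the variance, they lay at -24.8 and -22.6, near the WT libraries at -25.1, -25.7 and -35.3. The KO embryoid bodies lay at 27 and 31.6 there, near the KO day 4 libraries at 37 and 37.8. Levels are given as FPKM, a count scaled by gene length and library size. Changes are log2 fold changes of KO embryoid bodies over KO pluripotent culture with a standard error derived from the test's F, and a gene was called at an adjusted p below 0.05 by edgeR's quasi-likelihood test. In these bulk libraries, fewer cells of a type and less RNA per cell cannot be told apart.

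Lamtor5 itself was at 23 and 18.3 FPKM in KO embryoid bodies, against 31.0 and 29.1 FPKM in KO pluripotent culture. Its change of -0.65 ± 0.13 was called (adjusted p = 0.00104), but not after a correction for gene length, which gave -0.31. The WT libraries held 41.8 FPKM in the embryoid body and 40.7 FPKM in pluripotent culture. Reads remained in every KO library, and a count over the whole gene cannot locate the edit, so the genotype is taken from the labels. All 8 markers of mouse embryonic stem cells were present, with a summed level of 5140 and 4926 FPKM in KO embryoid bodies and 4328 and 4704 FPKM in KO pluripotent culture. The fibroblast and feeder markers were low in both groups. They summed to 25.3 and 26.3 FPKM in KO embryoid bodies and 20.1 and 24.6 FPKM in KO pluripotent culture, and Postn was at 0 in all 4 libraries.

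Of 13990 genes tested, 8535 were called, which is 61.0%. Of these 4342 (31.0%) were higher and 4193 (30.0%) lower in KO embryoid bodies, and the median log2 change of all tested genes was 0.01. Changes of 2-fold or more were found for 1772 genes that rose (12.7%) and 931 that fell (6.65%). The FPKM ranges of the groups did not overlap for 11446 genes (81.8%). A count of list members called is read below against these shares. DESeq2 called fewer genes, 6225, and leaving out 1 of the 4 libraries at a time left 6860 to 7561 calls.

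Among the largest rises were Zic2, a zinc-finger factor of the formative epiblast, and Myb, a transcription factor of progenitor cells. Zic2 was at 53.9 and 53.7 FPKM in KO embryoid bodies, against 1.20 and 2.50 FPKM in KO pluripotent culture, a change of 4.76 ± 0.21 (adjusted p = 6.83e-09). Without KO pluripotent replicate 2 the change was 5.36. Myb was at 2.56 and 4.01 FPKM in KO embryoid bodies and at 0.11 FPKM in both KO pluripotent libraries (4.78 ± 0.38, adjusted p = 7.14e-07). Gsx2, a homeobox gene of the ventral forebrain, was at 3.58 and 3.75 FPKM in KO embryoid bodies and at 0.06 and 0.18 FPKM in KO pluripotent culture (4.78 ± 0.50, adjusted p = 6.46e-06). For each of these 3 genes the lowest embryoid body library was above the highest pluripotent one, which the rule for naming the largest rises required.

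The other large rises involved genes with very few reads in KO pluripotent culture. Gsx2, with 4 counts there, and Myb, with 8, were also low. Pdlim4, which encodes a PDZ and LIM domain protein, was at 6.30 and 7.07 FPKM in KO embryoid bodies and at 0 and 0.34 FPKM in KO pluripotent culture. Maob, a monoamine oxidase, was at 2.52 and 3.60 FPKM in KO embryoid bodies and at 0.04 and 0.12 FPKM in KO pluripotent culture. Their changes were 5.14 ± 0.52 (adjusted p = 4.57e-06) and 5.07 ± 0.68 (adjusted p = 4.24e-05). Without KO pluripotent replicate 2, Gsx2 changed by 5.69, Maob by 5.99 and Pdlim4 by 9.34, and without replicate 1 Pdlim4 changed by 4.18. The glutathione transferase gene Gstm3 and the membrane protein gene Ms4a4d each had 78 counts in KO embryoid bodies and 1 in KO pluripotent culture. For both the count ratio was 76.6, with a 95% exact counting interval of 13.3 to 3062. Fn3k, fructosamine 3-kinase, had a count ratio of 39.7 (95% interval 10.7 to 334), and Rem2, a small GTPase, one of 30.8 (10.2 to 152). With so few counts the fitted changes moved with the library left out. Without KO pluripotent replicates 1 and 2 in turn they were 4.99 and 8.27 for both Gstm3 and Ms4a4d and 3.78 and 8.54 for Rem2.

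The class I histocompatibility genes H2-Q9 and H2-Q8 had no count in KO pluripotent culture. Against 3 counts over that group, H2-Q9 was at least 32.1-fold higher and H2-Q8 at least 16.7-fold higher in KO embryoid bodies. They belong to a family of near-identical copies among which reads can be split, and DESeq2 did not call H2-Q8. Tmem254c differed widely between the KO embryoid body libraries, at 0.87 and 16.3 FPKM, against 0.50 and 0.01 FPKM in KO pluripotent culture. Its rise was not called without KO embryoid body replicate 2, where it was 1.72, nor by limma on log2(FPKM + 1). Without 1 of the other 3 libraries it lay between 4.23 and 9.97. Tmem254c is likewise 1 of several near-identical copies.

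Among the largest falls was Msln, which encodes the surface protein mesothelin. It was at 0.05 and 0.09 FPKM in KO embryoid bodies, against 21.4 and 18.5 FPKM in KO pluripotent culture, a count ratio of 0.00336 (95% interval 0.000693 to 0.00987). Tesc, the calcium-binding protein tescalcin, was at 0.63 and 0.82 FPKM in KO embryoid bodies and at 40.5 and 33.0 FPKM in KO pluripotent culture (-5.74 ± 0.25, adjusted p = 6.58e-09). Aspa, aspartoacylase, was at 0.19 and 0.12 FPKM in KO embryoid bodies and at 5.11 and 4.18 FPKM in KO pluripotent culture (-4.93 ± 0.44, adjusted p = 1.75e-06). These genes were near 0 in both embryoid body libraries and well expressed in both pluripotent ones. Separate ranges were again required by the naming rule.

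The protease gene Prss27, the natriuretic peptide gene Nppb and Opalin, an oligodendrocyte membrane protein gene, had no count in KO embryoid bodies. They were at least 22.1-fold, 21.1-fold and 16.6-fold lower there than in KO pluripotent culture. H2ac19, a histone H2A gene, was at least 9.51-fold lower and Mir719 at least 3.4-fold lower, and DESeq2 called neither. Leaving out a single library ended the call of Mir719 in 3 of 4 cases, with changes of -4.20 without KO pluripotent replicate 2 and of -5.46 and -5.45 without KO embryoid body replicates 1 and 2. Gsg1 had a count ratio of 0.0106 (95% interval 0.00127 to 0.0387) and Pglyrp1, a peptidoglycan recognition protein, one of 0.0317 (0.00641 to 0.0954). For Ube2dnl1 the ratio was 0.0182 (0.000452 to 0.106) and for C1qtnf9 it was 0.0236 (0.00282 to 0.0882). With so few counts the fitted changes moved with the library left out. Without KO embryoid body replicates 1 and 2 in turn they were -4.74 and -7.86 for Ube2dnl1 and -4.44 and -8.48 for C1qtnf9.

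Of the 18 tested members of the naive pluripotency list 7 rose and 8 fell, with a median log2 change of -0.12, and no member rose by 2-fold while 4 fell by 2-fold. Only 4 rose without KO pluripotent replicate 1. The 4 that fell by 2-fold were Socs3, Stat3, Tfcp2l1 and Klf4. Socs3, the feedback inhibitor of LIF signalling, was at 4.24 and 4.28 FPKM in KO embryoid bodies, against 67.5 and 67.1 FPKM in KO pluripotent culture (-4.09 ± 0.09, adjusted p = 7.92e-11). Stat3 was at 11.9 FPKM in both KO embryoid body libraries and at 30.3 and 28.5 FPKM in KO pluripotent culture (-1.41 ± 0.08, adjusted p = 4.48e-08). Tfcp2l1 and Klf4, STAT3-responsive naive factors, changed by -1.40 ± 0.08 (adjusted p = 5.99e-08) and -1.02 ± 0.09 (adjusted p = 1.86e-06).

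The 4 others that fell did so by less than 2-fold, among them the T-box gene Tbx3 by 0.44 ± 0.07 (adjusted p = 0.000201). Tet2, a 5-methylcytosine dioxygenase gene, fell by 0.30 ± 0.10 (adjusted p = 0.0207), and its ranges overlapped, at 13.7 and 12.1 FPKM in KO embryoid bodies and 13.2 and 16.3 FPKM in KO pluripotent culture. The call of Tet2 was lost with limma and when replicate 2 of either group was left out, with -0.21 for that of the embryoid bodies and -0.16 for that of pluripotent culture. Zfp42, also called Rex1, was at 387 and 359 FPKM in KO embryoid bodies and at 350 and 374 FPKM in KO pluripotent culture, and the change of -0.07 ± 0.07 was not called (adjusted p = 0.429). Esrrb, an orphan receptor that maintains self-renewal, was at 217 and 207 FPKM in KO embryoid bodies and at 230 and 215 FPKM in KO pluripotent culture (-0.18 ± 0.07, adjusted p = 0.0538). Esrrb was called under 6 alternatives. Its change was -0.18 with only the 4 libraries, -0.20 with only the 6 KO libraries, -0.19 with the replicate block, -0.39 with the length correction, with and without that block, and -0.25 without KO pluripotent replicate 2. Klf2 changed by -0.20 ± 0.08 (adjusted p = 0.0339), a call that was lost with limma, at -0.10, with the length correction, at -0.06, and without any 1 of the 4 libraries, at -0.17 to -0.24. Fgf4, an FGF ligand made by naive cells, rose by 0.98 ± 0.08 (adjusted p = 1.09e-06) and Nr0b1 by 0.88 ± 0.10 (adjusted p = 1.51e-05). The ranges of both genes were separate, with Nr0b1 at 102 and 101 FPKM in KO embryoid bodies and at 53 and 49 FPKM in KO pluripotent culture.

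In the general pluripotency list 7 of 13 members rose and 5 fell. Sox2 was at 437 and 410 FPKM in KO embryoid bodies and at 170 and 186 FPKM in KO pluripotent culture (1.14 ± 0.07, adjusted p = 1.30e-07). Nanog was at 181 and 144 FPKM in KO embryoid bodies and at 233 and 265 FPKM in KO pluripotent culture (-0.67 ± 0.10, adjusted p = 7.87e-05). Tdgf1, the NODAL co-receptor Cripto, changed by -1.04 ± 0.09 (adjusted p = 1.03e-06). Pou5f1, which encodes OCT4, was at 729 and 678 FPKM in KO embryoid bodies and at 818 and 895 FPKM in KO pluripotent culture. Its change of -0.37 ± 0.07 (adjusted p = 0.000875) was not called after the length correction, where it was -0.12.

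Formative genes were higher in KO embryoid bodies. Of 13 tested members 9 rose, 7 of them by 2-fold or more, and 2 fell, and the median log2 change was 2.34. Otx2, which directs enhancers of the formative epiblast, was at 113 and 130 FPKM in KO embryoid bodies, against 7.94 and 11.5 FPKM in KO pluripotent culture (3.56 ± 0.18, adjusted p = 2.50e-08). Fgf5 was at 8.11 and 10.5 FPKM in KO embryoid bodies and at 1.11 and 0.63 FPKM in KO pluripotent culture (3.32 ± 0.23, adjusted p = 2.27e-07). Sox4 rose by 2.45 ± 0.11 (adjusted p = 9.47e-09), and Pou3f1, also called Oct6, by 0.98 ± 0.19 (adjusted p = 0.000813).

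The de novo methyltransferases moved apart. Dnmt3a was at 34.8 and 40.0 FPKM in KO embryoid bodies and at 6.07 and 7.38 FPKM in KO pluripotent culture (2.34 ± 0.10, adjusted p = 4.66e-09). Dnmt3b was at 34.9 and 41.3 FPKM in KO embryoid bodies and at 37.3 and 34.3 FPKM in KO pluripotent culture, so the ranges overlapped (-0.02 ± 0.10, adjusted p = 0.856). With the replicate block and the length correction together Dnmt3b was called, at -0.23. Uhrf1, the partner of the maintenance methyltransferase, changed by -0.70 ± 0.08 (adjusted p = 1.12e-05). Of the 12 DNA methylation genes 3 rose and 4 fell, with 2 lower without KO pluripotent replicate 2 or without KO embryoid body replicate 2. Etv4, an ETS factor downstream of FGF and ERK, went against the formative list, at 24.0 and 24.2 FPKM in KO embryoid bodies and 151 and 139 FPKM in KO pluripotent culture (-2.70 ± 0.09, adjusted p = 8.73e-10).

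**Figure D1:**
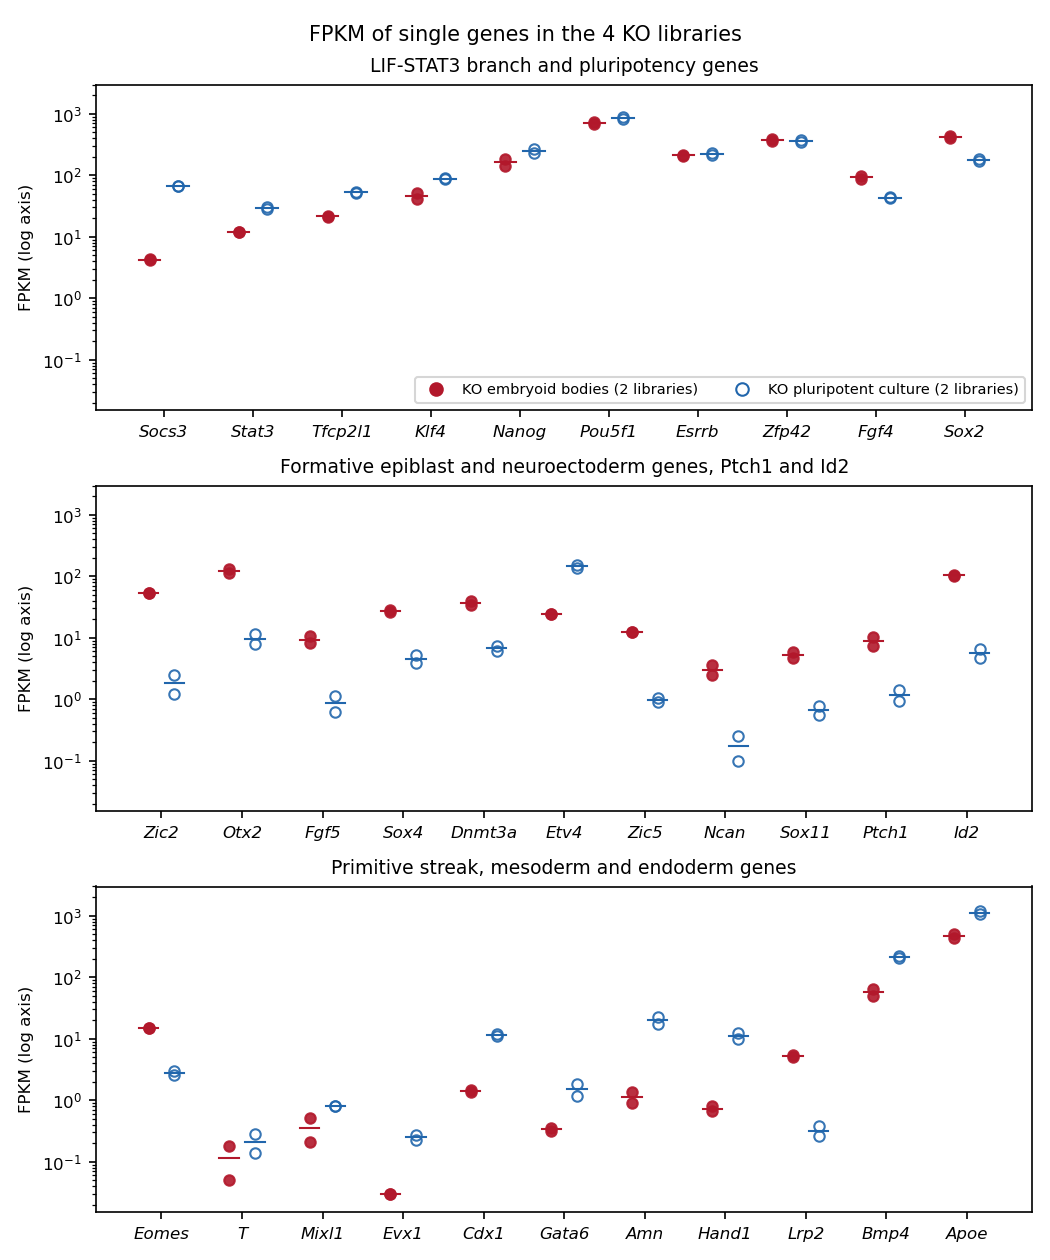
FPKM of single genes on a log axis in the 2 KO embryoid body libraries (filled, left) and the 2 KO pluripotent libraries (open, right), with a line at each mean. Socs3 sat at 4.24 and 4.28 FPKM in KO embryoid bodies, Zfp42 and Esrrb lay level with pluripotent culture, Otx2 and Zic2 were higher, and T stayed below 0.3 FPKM in all 4 libraries.

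Primitive streak genes were scarce in both groups. Of the 16 genes listed, 10 passed the filter on low values; 1 rose and 3 fell. T, also called Brachyury, was at 0.05 and 0.18 FPKM in KO embryoid bodies and at 0.28 and 0.14 FPKM in KO pluripotent culture, with overlapping ranges (-0.95 ± 0.70, adjusted p = 0.273). Gsc, the organizer gene goosecoid, had no count in any of the 4 libraries. Mixl1 was at 0.51 and 0.21 FPKM in KO embryoid bodies and at 0.80 and 0.81 FPKM in KO pluripotent culture (-1.28 ± 0.45, adjusted p = 0.0263). DESeq2 and limma did not call Mixl1. Its change was -2.05 and called without KO embryoid body replicate 1, and between -0.77 and -1.29 and not called without any of the other 3 libraries.

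Eomes, a T-box factor of the streak and of trophoblast, was the member that rose. It was at 14.8 and 14.9 FPKM in KO embryoid bodies and at 2.58 and 3.01 FPKM in KO pluripotent culture (2.31 ± 0.14, adjusted p = 9.52e-08). Cdx1, a caudal-type homeobox gene, was at 1.34 and 1.46 FPKM in KO embryoid bodies and at 11.1 and 12 FPKM in KO pluripotent culture (-3.15 ± 0.19, adjusted p = 8.25e-08). Evx1, a homeobox gene of the posterior streak, had 2 counts in KO embryoid bodies and 15 in KO pluripotent culture, a count ratio of 0.131 (95% interval 0.0145 to 0.563), and limma on log2(FPKM + 1) did not call it. In the WT embryoid body library T was at 24.0 FPKM, Mixl1 at 5.67 FPKM, Eomes at 35.0 FPKM and Gsc at 3.81 FPKM.

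Several endoderm and mesoderm genes were lower in KO embryoid bodies. Gata6, a primitive endoderm factor, was at 0.36 and 0.32 FPKM in KO embryoid bodies and at 1.86 and 1.16 FPKM in KO pluripotent culture (-2.24 ± 0.37, adjusted p = 0.000228). Amn, the visceral endoderm protein amnionless, was at 1.38 and 0.89 FPKM in KO embryoid bodies and at 22.3 and 17.5 FPKM in KO pluripotent culture (-4.24 ± 0.23, adjusted p = 3.74e-08). Hand1, a factor of trophoblast and lateral mesoderm, was at 0.67 and 0.80 FPKM in KO embryoid bodies and at 12.4 and 10.1 FPKM in KO pluripotent culture (-4.04 ± 0.29, adjusted p = 3.20e-07). Of 17 extraembryonic endoderm genes 9 fell and 5 rose. Lrp2, the endocytic receptor megalin, was among those that rose, at 4.97 and 5.36 FPKM in KO embryoid bodies and 0.26 and 0.38 FPKM in KO pluripotent culture (3.92 ± 0.13, adjusted p = 1.06e-09).

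Apoe, the apolipoprotein E gene, was at 505 and 436 FPKM in KO embryoid bodies and at 1202 and 1063 FPKM in KO pluripotent culture (-1.38 ± 0.10, adjusted p = 3.02e-07). Gata4 rose by 1.19 ± 0.27 (adjusted p = 0.00202), at 1.81 and 1.54 FPKM in KO embryoid bodies and 0.76 and 0.60 FPKM in KO pluripotent culture, and DESeq2 did not call it. The 10 extraembryonic endoderm markers, 6 of them below a mean of 1 FPKM, summed to 13.4 and 12.6 FPKM in KO embryoid bodies and 31.4 and 25.5 FPKM in KO pluripotent culture. The part of such cells in these results was not tested. Definitive endoderm members rose in 3 and fell in 3 of 11 cases, mesoderm and heart members in 4 and 3 of 14, trophoblast members in 6 and 4 of 15, and blood and endothelium members in 2 and 1 of 10. In the last list 1 rose without KO pluripotent replicate 2 or without KO embryoid body replicate 1. Foxa2 had 3 counts or fewer over each pair of libraries, as had Cdx2, a trophoblast factor, and Sox17 did not pass the filter on low values. Tek, the angiopoietin receptor, was at 5.16 and 4.23 FPKM in KO embryoid bodies and at 0.44 and 0.50 FPKM in KO pluripotent culture (3.22 ± 0.19, adjusted p = 6.61e-08).

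Neuroectoderm genes rose in 8 of 11 tested cases and fell in 2, with a median log2 change of 0.99. Only 5 rose without KO pluripotent replicate 1, and 6 with the length correction. Zic5 was at 12.6 and 12.3 FPKM in KO embryoid bodies and at 0.89 and 1.03 FPKM in KO pluripotent culture (3.58 ± 0.18, adjusted p = 2.15e-08). Sox11, a neural SoxC factor, rose by 2.86 ± 0.19 (adjusted p = 1.62e-07). Ncan, the proteoglycan neurocan, rose by 4.01 ± 0.36 (adjusted p = 1.72e-06), and by 4.88 without KO pluripotent replicate 2. Sox1, an early neural factor, was at 3.53 and 2.08 FPKM in KO embryoid bodies and 1.68 and 1.86 FPKM in KO pluripotent culture (0.55 ± 0.22, adjusted p = 0.0472). Its call was lost with DESeq2, with limma, with the length correction and without 3 of the 4 libraries, at 0.13 without KO embryoid body replicate 1, 0.49 without KO pluripotent replicate 1 and 0.60 without KO pluripotent replicate 2. Pax6 was low, at 1.11 and 1.15 FPKM in KO embryoid bodies and 0.30 and 0.53 FPKM in KO pluripotent culture (1.38 ± 0.35, adjusted p = 0.00486), and was not called without KO pluripotent replicate 1, at 1.03. Nes, the neural progenitor filament nestin, and Tubb3 fell by 0.90 ± 0.18 (adjusted p = 0.000761) and 0.68 ± 0.10 (adjusted p = 0.000103). The 8 neuroectoderm markers summed to less in KO embryoid bodies, at 43.5 and 35.7 FPKM, against 55.6 and 53.8 FPKM in KO pluripotent culture, and Tubb3 alone made up most of each sum.

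Notch and Hedgehog genes rose in 14 of 19 tested cases and fell in 2, with a median log2 change of 1.07, and 15 rose after the length correction. That correction lowered most of the values in this list, that of Notch3 from 2.20 to 1.79 among them. Ptch1, the Hedgehog receptor and target, was at 7.25 and 10.2 FPKM in KO embryoid bodies and at 0.95 and 1.40 FPKM in KO pluripotent culture (2.78 ± 0.21, adjusted p = 4.13e-07). The Hedgehog effector Gli2 rose by 1.07 ± 0.08 (adjusted p = 3.17e-07). Notch3 was at 10.6 FPKM in both KO embryoid body libraries and at 2.01 and 2.27 FPKM in KO pluripotent culture (2.20 ± 0.10, adjusted p = 6.27e-09). Hes1, a Notch target repressor, fell by 0.63 ± 0.11 (adjusted p = 0.000401).

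Among BMP genes 8 of 19 rose and 4 fell, and 5 rose without KO pluripotent replicate 1 and 4 with DESeq2. The ligand Bmp4 was at 64.3 and 50.3 FPKM in KO embryoid bodies and at 223 and 210 FPKM in KO pluripotent culture (-2.02 ± 0.12, adjusted p = 6.61e-08). Id2, an inhibitor of bHLH factors that BMP signalling induces, moved the other way, at 102 and 107 FPKM in KO embryoid bodies and 4.69 and 6.63 FPKM in KO pluripotent culture (4.10 ± 0.13, adjusted p = 8.73e-10). Id3 rose by 1.18 ± 0.10 (adjusted p = 1.45e-06), and Smad6, a feedback inhibitor of the pathway, fell by 1.48 ± 0.19 (adjusted p = 2.59e-05).

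Of 20 NODAL genes 10 rose and 7 fell. The ligand Nodal itself was at 42.6 and 33.8 FPKM in KO embryoid bodies and at 36.5 and 35.1 FPKM in KO pluripotent culture, with overlapping ranges (-0.02 ± 0.10, adjusted p = 0.902). Its feedback inhibitors rose, Lefty1 by 1.51 ± 0.12 (adjusted p = 5.11e-07) and Lefty2 by 0.74 ± 0.07 (adjusted p = 4.40e-06). The co-repressor gene Skil, a target of SMAD signalling, rose by 2.26 ± 0.15 (adjusted p = 1.57e-07). Foxh1, the DNA-binding partner of SMAD2, fell by 0.95 ± 0.08 (adjusted p = 1.43e-06). Inhbb, the activin B subunit, fell by 3.71 ± 0.21 (adjusted p = 5.55e-08).

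WNT genes rose in 17 of 28 cases and fell in 4. The number that rose was 11 with DESeq2, with the length correction and without KO pluripotent replicate 1. Fzd7, a WNT receptor, was at 69.3 and 69.7 FPKM in KO embryoid bodies and at 14.9 and 14.4 FPKM in KO pluripotent culture (2.14 ± 0.07, adjusted p = 1.06e-09). The feedback target Axin2 rose by 1.43 ± 0.13 (adjusted p = 1.69e-06) and the effector Tcf7 by 1.49 ± 0.11 (adjusted p = 3.57e-07). The ligand Wnt6 fell by 2.62 ± 0.18 (adjusted p = 1.87e-07).

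FGF and ERK genes were divided, with 11 of 25 higher and 10 lower. Fgf15, an FGF of the neural plate, was at 22.5 and 22.4 FPKM in KO embryoid bodies and at 0.80 and 1.25 FPKM in KO pluripotent culture (4.34 ± 0.18, adjusted p = 4.56e-09). The ERK phosphatase gene Dusp4 rose by 2.09 ± 0.15 (adjusted p = 2.99e-07). Egr1, an immediate early target of ERK, fell by 1.91 ± 0.11 (adjusted p = 7.30e-08), and Spry4, a feedback inhibitor, by 0.68 ± 0.07 (adjusted p = 3.21e-06).

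Genes of the epithelial adhesion and keratin list rose in 15 of 28 cases and fell in 6. The list also holds mesenchymal genes, of which Cdh2, Snai1 and Vim fell, Zeb1 rose and Snai2 was not called. Grhl2, a factor that maintains epithelial junctions, was at 8.03 and 11.2 FPKM in KO embryoid bodies and at 0.33 and 0.57 FPKM in KO pluripotent culture (4.31 ± 0.23, adjusted p = 3.16e-08). The adhesion gene Epcam rose by 1.30 ± 0.09 (adjusted p = 1.84e-07) and Cdh1, E-cadherin, by 0.86 ± 0.08 (adjusted p = 1.61e-06). The intermediate filament genes Krt8 and Vim fell. Krt8 was at 9.18 and 8.64 FPKM in KO embryoid bodies and at 40.8 and 34.4 FPKM in KO pluripotent culture (-2.19 ± 0.12, adjusted p = 5.30e-08), and Vim was at 96.3 and 82.8 FPKM in KO embryoid bodies and at 408 and 380 FPKM in KO pluripotent culture (-2.25 ± 0.09, adjusted p = 3.94e-09).

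Matrix genes rose in 12 of 24 cases and fell in 8. The type IV collagen gene Col4a1 was at 22.7 and 16.6 FPKM in KO embryoid bodies and at 48.1 and 43.1 FPKM in KO pluripotent culture (-1.33 ± 0.12, adjusted p = 1.81e-06). The laminin gene Lama1 fell by 2.07 ± 0.09 (adjusted p = 8.82e-09), while Lamb1 rose by 1.92 ± 0.14 (adjusted p = 3.25e-07). With the length correction the median of this list moved to -0.16, against 0.18 without it.

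**Figure D2:**
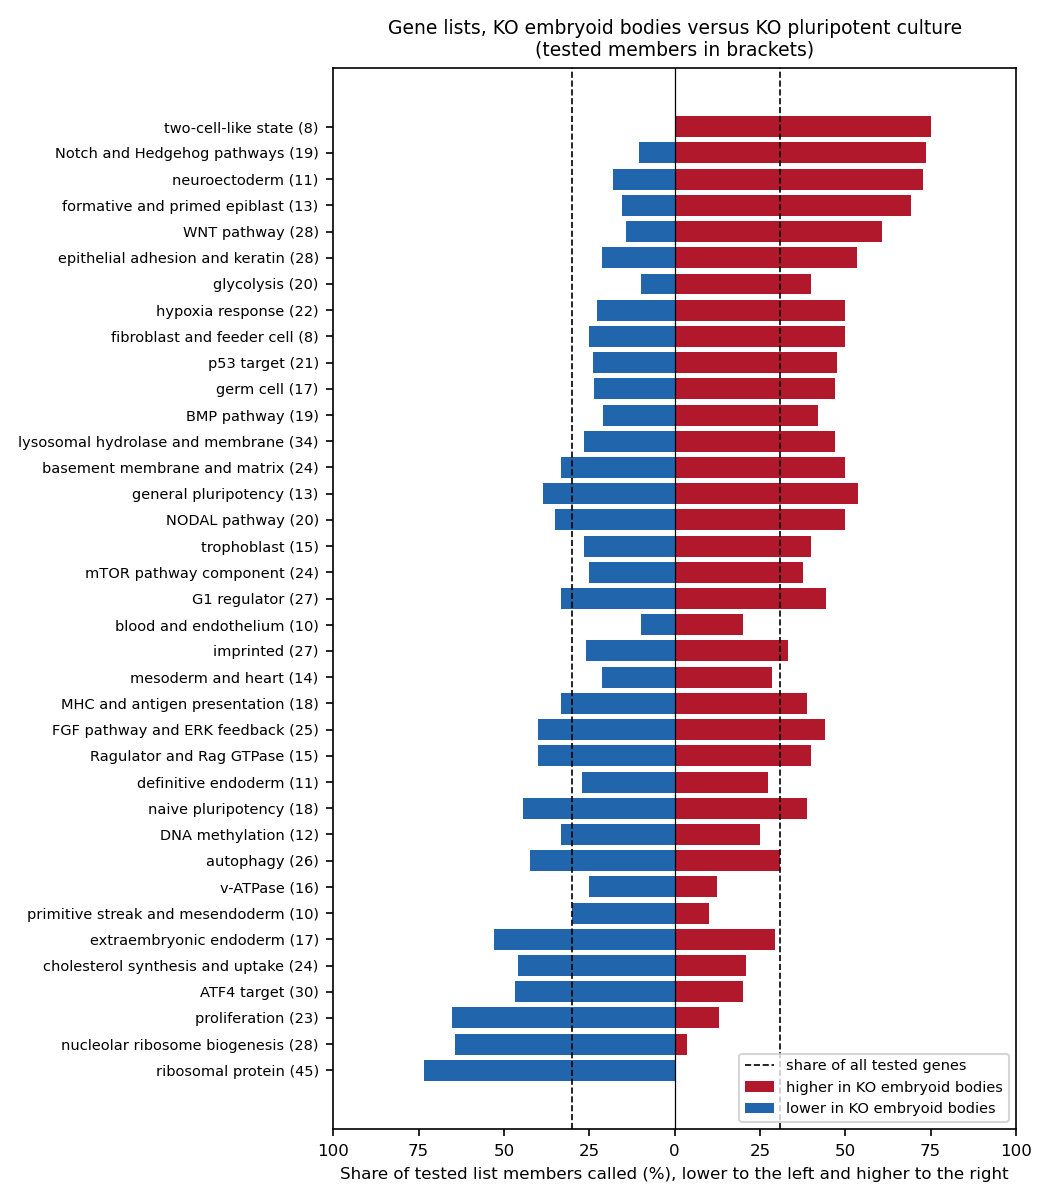
Share of tested members of each of 37 gene lists called higher (right) or lower (left) in KO embryoid bodies than in KO pluripotent culture, in percent, with the number tested in brackets. Dashed lines mark the shares of all tested genes, 31.0% higher and 30.0% lower; genes of the two-cell-like state stand at the top with 6 of 8 higher, followed by Notch and Hedgehog genes with 14 of 19, and ribosomal protein genes at the bottom with 33 of 45 lower.

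Lysosomal genes changed in both directions, with 16 of 34 members higher, 9 lower and a median log2 change of 0.14. Lipa, lysosomal acid lipase, was at 9.73 and 10.9 FPKM in KO embryoid bodies and at 2.28 and 2.39 FPKM in KO pluripotent culture (2.03 ± 0.15, adjusted p = 4.10e-07). Hexa, a subunit of a lysosomal hexosaminidase, was at 81.8 and 77.2 FPKM in KO embryoid bodies and at 129 and 117 FPKM in KO pluripotent culture (-0.74 ± 0.08, adjusted p = 8.25e-06). Among membrane proteins, the tetraspanin gene Cd63 fell by 1.29 ± 0.09 (adjusted p = 2.55e-07) and the abundant Lamp1 by 0.64 ± 0.08 (adjusted p = 3.78e-05).

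TFEB and TFE3 bind the letters CACGTG in many lysosomal promoters, so RefSeq promoter windows of GRCm38.p6 were searched for this palindrome on both strands. Each window runs from 250 bases before to 50 bases after a gene's start. The letters were found for 10 of 26 matched lysosomal genes (38.5%) and for 4 of 11 matched v-ATPase genes (36.4%), against 8.09% of all 27025 genes in the table. Of the 10 lysosomal genes that hold them 4 rose, 3 fell and 3 were not called, and of the 16 without them 7 rose, 4 fell and 5 were not called. A match describes the sequence and does not show binding. The 4 called genes with the smallest p-values that hold the letters are shown 5′ to 3′ with the match in capitals. Gaa (chr11:119267713-119268012, plus strand) and Sgsh (chr11:119355461-119355760, minus strand) rose, and Lamp1 (chr8:13158911-13159210, plus strand) and Ctsa (chr2:164833523-164833822, plus strand) fell.
Gaa: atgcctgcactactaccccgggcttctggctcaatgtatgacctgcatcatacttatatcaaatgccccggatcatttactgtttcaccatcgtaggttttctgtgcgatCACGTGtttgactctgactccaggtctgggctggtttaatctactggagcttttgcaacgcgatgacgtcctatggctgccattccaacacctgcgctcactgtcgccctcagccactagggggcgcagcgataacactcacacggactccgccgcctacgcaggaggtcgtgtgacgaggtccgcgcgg
Sgsh: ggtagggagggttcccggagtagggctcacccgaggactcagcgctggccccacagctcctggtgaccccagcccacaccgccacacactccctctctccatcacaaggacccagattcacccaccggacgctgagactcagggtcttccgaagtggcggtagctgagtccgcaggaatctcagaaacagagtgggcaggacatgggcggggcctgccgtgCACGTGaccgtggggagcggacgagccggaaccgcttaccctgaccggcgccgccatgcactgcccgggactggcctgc
Lamp1: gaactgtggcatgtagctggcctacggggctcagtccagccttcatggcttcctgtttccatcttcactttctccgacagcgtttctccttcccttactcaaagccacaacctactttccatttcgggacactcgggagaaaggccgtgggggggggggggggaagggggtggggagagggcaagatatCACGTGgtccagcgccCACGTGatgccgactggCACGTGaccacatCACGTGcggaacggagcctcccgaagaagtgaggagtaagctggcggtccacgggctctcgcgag
Ctsa: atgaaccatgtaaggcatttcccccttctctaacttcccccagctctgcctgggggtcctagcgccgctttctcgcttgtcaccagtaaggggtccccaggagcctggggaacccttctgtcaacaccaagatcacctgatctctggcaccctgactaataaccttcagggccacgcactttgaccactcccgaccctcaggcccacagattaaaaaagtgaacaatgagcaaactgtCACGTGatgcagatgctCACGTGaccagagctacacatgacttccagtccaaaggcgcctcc

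In the windows shown, Lamp1 holds 4 matches, Ctsa 2, and Gaa and Sgsh 1 each. For Ctsa, 1 of its 2 windows is shown. Whether the number of matches goes with the direction of change was not tested. Gaa, acid alpha-glucosidase, was at 50.6 and 48.2 FPKM in KO embryoid bodies and at 31.8 and 30.1 FPKM in KO pluripotent culture (0.58 ± 0.07, adjusted p = 2.81e-05). Sgsh, a heparan sulfatase, was at 1.98 and 2.09 FPKM in KO embryoid bodies and at 0.91 and 0.88 FPKM in KO pluripotent culture (1.08 ± 0.20, adjusted p = 0.000500). Ctsa, the protective protein cathepsin A, fell by 0.47 ± 0.06 (adjusted p = 5.17e-05).

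The regulators of these genes also moved apart. Tfeb was at 8.69 and 7.66 FPKM in KO embryoid bodies and at 32.6 and 25.4 FPKM in KO pluripotent culture (-1.94 ± 0.14, adjusted p = 3.97e-07), while Tfe3 rose by 0.75 ± 0.08 (adjusted p = 7.92e-06). Rragb, a Rag GTPase, was at 26.1 and 26.9 FPKM in KO embryoid bodies and at 5.63 and 6.04 FPKM in KO pluripotent culture (2.08 ± 0.10, adjusted p = 9.70e-09). The Ragulator subunits Lamtor1 and Lamtor4 fell by 0.55 ± 0.08 (adjusted p = 6.84e-05) and 0.71 ± 0.12 (adjusted p = 0.000246). With the length correction their changes were -0.27 and -0.37. The subunits Lamtor2 and Lamtor3 were not called, at 0.11 and 0.0, and lay at 0.53 and 0.28 with that correction. In all 6 members of the Ragulator and Rag list rose and 6 fell, of 15. Of 16 v-ATPase subunits, which acidify the lysosome, 2 rose and 4 fell, a share below that of all genes. Without KO pluripotent replicate 2, or without either KO embryoid body library, 1 of them rose, and 2 fell with the length correction.

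Of 24 mTOR pathway genes 9 rose and 6 fell, and 3 fell without KO embryoid body replicate 1. Castor2, a paralogue of the arginine sensor CASTOR1, rose by 2.64 ± 0.22 (adjusted p = 1.09e-06) and Sesn2, a leucine sensor, by 1.04 ± 0.12 (adjusted p = 1.38e-05). Of 26 autophagy genes 8 rose and 11 fell, among them Gabarapl2, at 121 and 107 FPKM in KO embryoid bodies and 377 and 346 FPKM in KO pluripotent culture (-1.77 ± 0.09, adjusted p = 2.70e-08). Without KO embryoid body replicate 2, 7 autophagy genes fell.

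ATF4 and its targets, which supply amino acids under stress, were more often lower, in 14 of 30 cases, with 6 higher. Atf4 was at 67.3 and 58.1 FPKM in KO embryoid bodies and at 148 and 137 FPKM in KO pluripotent culture (-1.28 ± 0.09, adjusted p = 2.76e-07). Asns, asparagine synthetase, fell by 0.54 ± 0.06 (adjusted p = 1.58e-05) and Aars, alanyl-tRNA synthetase, by 0.95 ± 0.08 (adjusted p = 9.99e-07). Slc7a3, a transporter of cationic amino acids, went against them, at 71.8 and 77.4 FPKM in KO embryoid bodies and 8.20 and 12 FPKM in KO pluripotent culture (2.78 ± 0.12, adjusted p = 5.73e-09).

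Cholesterol genes were lower in 11 of 24 cases and higher in 5, and lower in 7 without KO embryoid body replicate 1. Pmvk, phosphomevalonate kinase, was at 16.6 and 17.0 FPKM in KO embryoid bodies and at 49.7 and 45.3 FPKM in KO pluripotent culture (-1.60 ± 0.14, adjusted p = 1.38e-06).

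Glycolysis genes rose in 8 of 20 cases and fell in 2, and hypoxia response genes rose in 11 of 22 and fell in 5. With DESeq2 7 hypoxia genes rose and 2 fell. Without KO pluripotent replicate 2 or KO embryoid body replicate 1, 2 fell, and without KO embryoid body replicate 2, 3 fell. The glucose transporter gene Slc2a3 was at 566 and 543 FPKM in KO embryoid bodies and at 196 and 240 FPKM in KO pluripotent culture (1.24 ± 0.11, adjusted p = 1.22e-06). Pgk1, phosphoglycerate kinase, was at 708 and 738 FPKM in KO embryoid bodies and at 269 and 390 FPKM in KO pluripotent culture (1.03 ± 0.14, adjusted p = 3.68e-05). Hk2, hexokinase 2, fell by 1.04 ± 0.09 (adjusted p = 1.59e-06). Bnip3, a mitophagy receptor induced by HIF1, was at 107 and 131 FPKM in KO embryoid bodies and at 18.1 and 50.6 FPKM in KO pluripotent culture (1.69 ± 0.32, adjusted p = 0.000550). The KO pluripotent replicates differed for several of these genes, replicate 1 being the lower. Without replicate 2 the change of Bnip3 was 2.58 and that of Egln3, a HIF prolyl hydroxylase, was 2.40, against 1.61 ± 0.31 with all libraries (adjusted p = 0.000666). Car12, a membrane carbonic anhydrase, had a count ratio of 48.7 (95% interval 16.4 to 239), and its change was 4.44 and 9.20 without KO pluripotent replicates 1 and 2 in turn.

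Ribosome biogenesis genes of the nucleolus fell in 18 of 28 cases and rose in 1, with a median log2 change of -0.26, and 0 rose without KO pluripotent replicate 2 or without either KO embryoid body library. Nhp2, an H/ACA ribonucleoprotein, was at 112 and 103 FPKM in KO embryoid bodies and at 211 and 192 FPKM in KO pluripotent culture (-1.01 ± 0.11, adjusted p = 5.95e-06), and Ppan fell by 0.81 ± 0.08 (adjusted p = 3.60e-06). Proliferation genes fell in 15 of 23 cases and rose in 3. The mitotic activator Cdc20 was at 84.0 and 91.6 FPKM in KO embryoid bodies and at 226 and 185 FPKM in KO pluripotent culture (-1.34 ± 0.12, adjusted p = 2.31e-06), and Tyms, thymidylate synthase, fell by 0.76 ± 0.07 (adjusted p = 2.02e-06).

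The D-type cyclins, which drive cells through G1, changed in opposite directions. Ccnd1 was at 10.2 and 9.51 FPKM in KO embryoid bodies and at 1.28 and 1.98 FPKM in KO pluripotent culture (2.49 ± 0.16, adjusted p = 1.35e-07). Ccnd3 was at 112 and 108 FPKM in KO embryoid bodies and at 272 and 265 FPKM in KO pluripotent culture (-1.39 ± 0.08, adjusted p = 7.71e-08). Ccnd2 held 13 counts over the KO embryoid body libraries and 2 over the KO pluripotent ones, a ratio of 6.38 (95% interval 1.44 to 58.2), and its call was lost with DESeq2, limma and the length correction. Without KO pluripotent replicate 1 the change was 5.71 and called, and without any 1 of the other 3 libraries it was 1.51 to 2.56 and not called. Rb1, the retinoblastoma protein that cyclin D kinases inactivate, rose by 1.71 ± 0.11 (adjusted p = 1.52e-07). Over all G1 regulators 12 of 27 rose and 9 fell, and 7 rose with DESeq2. Of 21 p53 targets 10 rose and 5 fell, with Trp53inp1 higher by 1.25 ± 0.09 (adjusted p = 3.17e-07) and Perp lower by 2.07 ± 0.17 (adjusted p = 1.07e-06).

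Gene length went with the direction of change. Across the 13990 tested genes the Spearman correlation of the log2 change with log2 gene length was 0.318, given as a description since genes share their libraries. Each of the 4 pairs of single libraries gave a value between 0.294 and 0.333, against -0.146 between the KO embryoid body replicates and -0.046 between the KO pluripotent replicates. With genes split into 5 bins of equal size by length, in the bin of shortest genes, with a median length of 998 bases, the median log2 change was -0.38, and 11.2% of genes rose while 44.1% fell. In the bin of longest genes, with a median length of 5811 bases, the median was 0.33, and 54.1% rose while 15.3% fell. The same comparison between the WT libraries gave a correlation of -0.028.

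The trend was visible in the single libraries. Set against the mean of all 9 libraries, the correlation with length was 0.117 and 0.190 in the KO embryoid bodies and -0.317 and -0.348 in the KO pluripotent libraries, against -0.070 in the WT embryoid body and -0.042 in the WT pluripotent library. The day 4 libraries gave 0.315 and 0.41 in KO and 0.162 in WT. KO embryoid bodies against the WT embryoid body gave 0.162, and KO against WT pluripotent culture gave -0.228. On day 4, KO over KO pluripotent culture had a median log2 change of -0.48 in the shortest bin and 0.47 in the longest. A length-corrected fit called 7946 genes, of which 6755 were called in the same direction without the correction. Whether the trend is technical or biological was not tested.

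**Figure D3:**
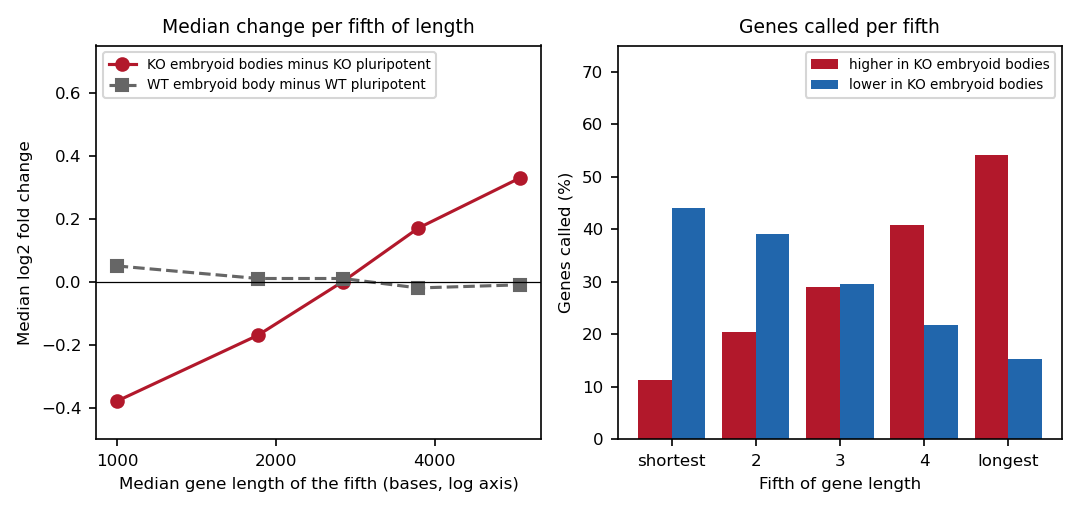
Left, median log2 fold change in 5 equal bins of gene length against the bin's median length in bases, for KO embryoid bodies over KO pluripotent culture (circles) and the WT embryoid body over WT pluripotent culture (squares). Right, percent of genes called higher or lower in each bin; the KO medians run between -0.38 and 0.33 while the WT medians stay within 0.05 of 0.

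Ribosomal protein genes had the lowest median length of the 37 lists, 9.63 on the log2 scale. Of 45 tested members 33 fell and 0 rose, with a median log2 change of -0.29, and after the length correction 12 rose and 3 fell, with a median of 0.08. With limma 20 fell. Rplp1 was at 1710 and 1900 FPKM in KO embryoid bodies and at 2711 and 2723 FPKM in KO pluripotent culture (-0.70 ± 0.09, adjusted p = 3.64e-05), and stayed lower after the correction, at -0.26. Rps2 was at 2485 and 2622 FPKM in KO embryoid bodies and at 3449 and 3352 FPKM in KO pluripotent culture (-0.52 ± 0.08, adjusted p = 0.000193), and was not called after it, at -0.19. The direction of this list therefore depends on the correction. The nucleolar list still had 20 members lower and the proliferation list 14 after it.

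**Figure D4:**
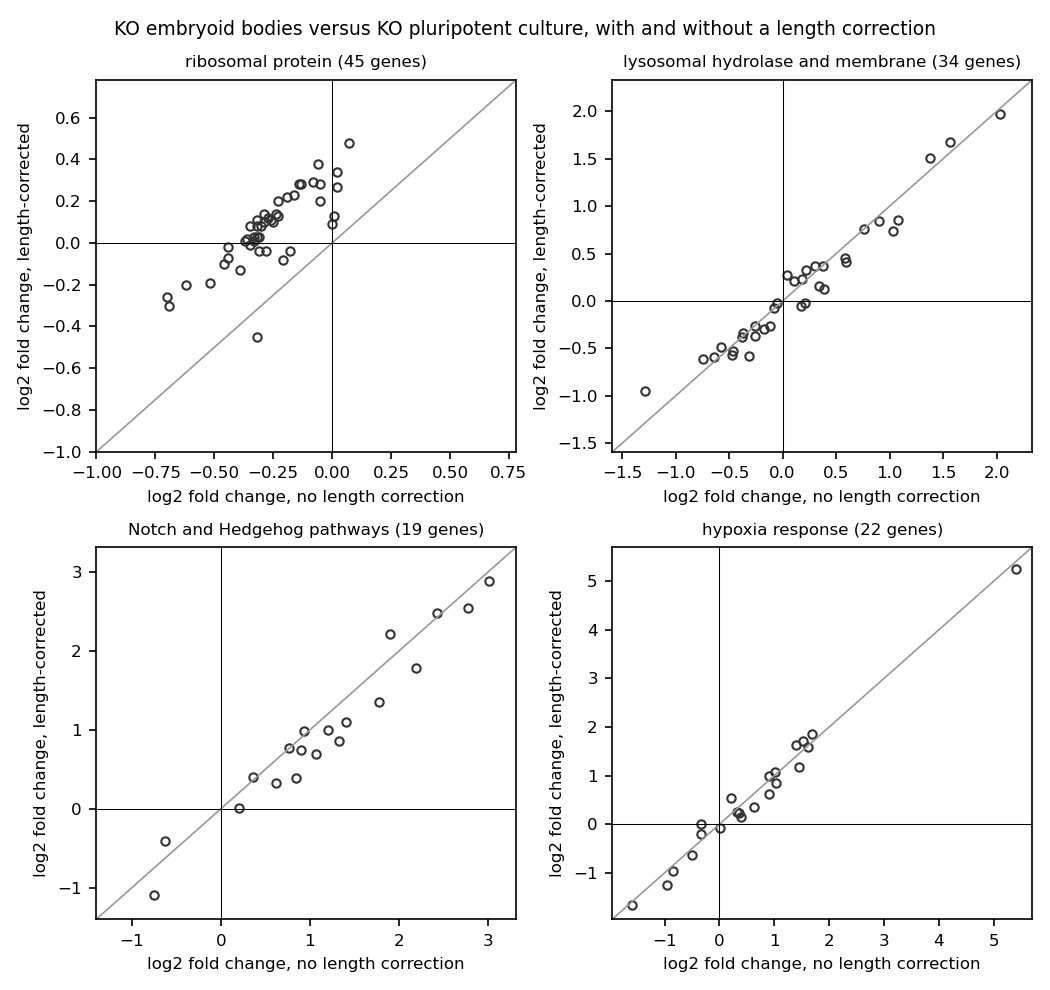
Log2 fold change of list members without (horizontal axis) and with (vertical axis) a length correction, 1 point per gene, with a line of equality. The 45 ribosomal protein genes lie above the line with only 1 exception, and most of the 19 Notch and Hedgehog genes lie below it. The 34 lysosomal and 22 hypoxia genes scatter on both sides of the line.

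The KO response was then set against the response of the 1 WT pair of libraries, whose spread was taken to equal that of the KO replicates. The responses differed for 5857 genes (41.9%), of which 3127 had the higher response in KO and 2730 the lower. The length-corrected fit called 4974, of which 4274 were also called in the same direction without the correction. The values below carry no length correction. For Klf4 and Fgf5 the WT pair changed more. Klf4 was at 51.7 and 41.6 FPKM in KO embryoid bodies and 85.6 and 90.5 FPKM in KO pluripotent culture, and at 17.3 FPKM in the WT embryoid body and 155 FPKM in WT pluripotent culture. The difference between these responses was 2.12 (adjusted p = 4.05e-06). Fgf5 reached 78.8 FPKM in the WT embryoid body, against 0.42 FPKM in WT pluripotent culture, and the responses differed by -4.15 (adjusted p = 7.84e-05). T differed by -7.38 (adjusted p = 8.71e-05) and Mixl1 by -4.31 (adjusted p = 0.000247). For Pou5f1 (-0.03, adjusted p = 0.892), Nanog (0.21, adjusted p = 0.324) and Eomes (-0.49, adjusted p = 0.113) no difference was called.

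Some of the KO responses rested on a level in KO pluripotent culture that was far from WT. Zic2 was at 1.20 and 2.50 FPKM in KO pluripotent culture, against 37.5 FPKM in WT pluripotent culture, and the responses differed by 3.29 (adjusted p = 1.21e-05). Ccnd1 was at 18.1 FPKM in the WT embryoid body and at 51.7 FPKM in WT pluripotent culture, so that it was higher in KO embryoid bodies and lower in the WT embryoid body than in their own pluripotent culture (3.98, adjusted p = 4.01e-07). Bmp4 was at 223 and 210 FPKM in KO pluripotent culture, against 25.3 FPKM in WT pluripotent culture (-0.88, adjusted p = 0.0124). For Bmp4 the embryoid bodies were far from WT too, with 2456 counts over the 2 KO libraries and 240 in the WT library. The WT change of Bmp4 was -1.14. Tesc was at 40.5 and 33.0 FPKM in KO pluripotent culture, against 7.77 FPKM in WT pluripotent culture (-3.81, adjusted p = 0.000212). Zic2 and Tesc were among the genes named for the size of their KO change, which is part of this difference. Hexa was at 34.1 FPKM in the WT embryoid body and 10.3 FPKM in WT pluripotent culture, below all 4 KO libraries, and its responses differed by -2.48 (adjusted p = 1.50e-06).

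**Figure D5:**
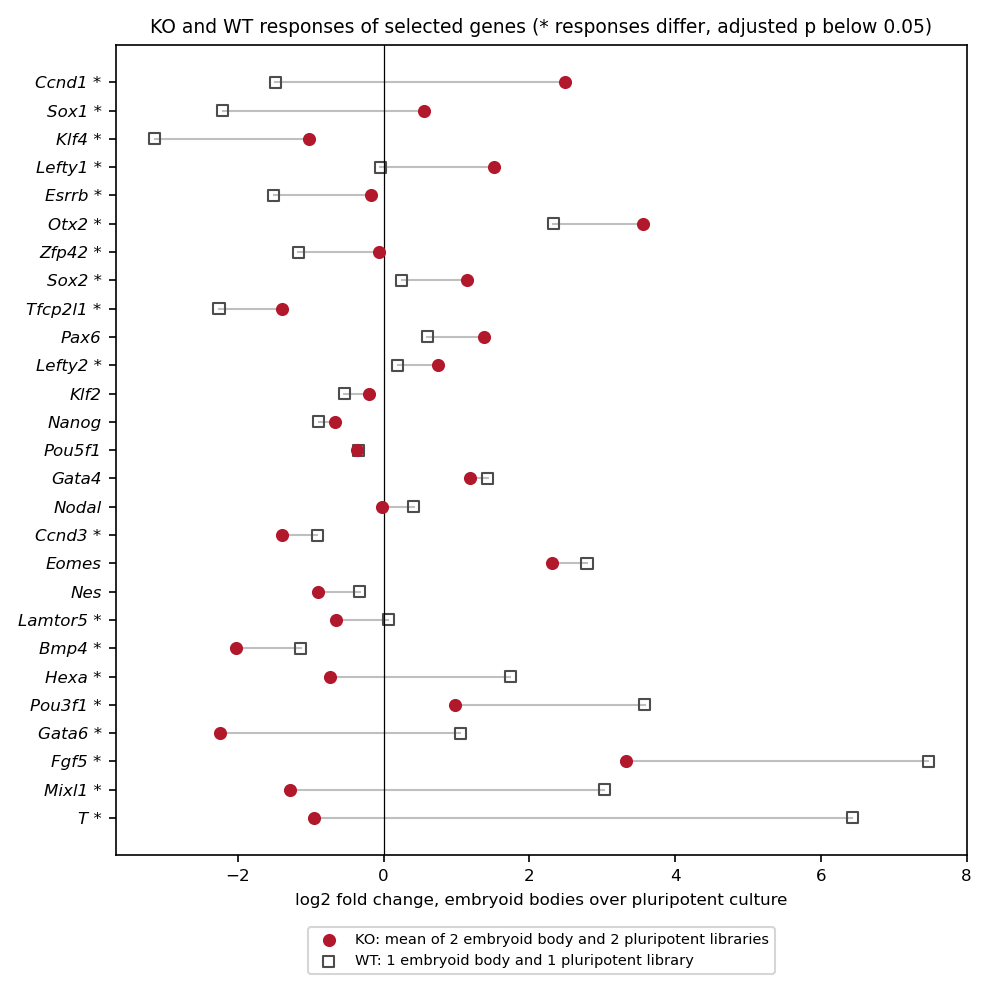
Log2 fold change of embryoid bodies over pluripotent culture for selected genes in KO (filled circles, 2 against 2 libraries) and WT (open squares, 1 against 1 library), joined by a line; a star marks responses that differ at an adjusted p below 0.05. T and Mixl1 lie to the right in WT and to the left of 0 in KO, Ccnd1 the other way round, and Pou5f1 coincides.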

How the data were processed

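The 9 RNA-seq libraries were deposited as 1 table each with an expected count, an FPKM value and a gene length. The authors' deposited expected counts are estimated counts of reads per gene, and the deposited FPKM values scale them by length and library size, per the file headers. The submitters' processing notes name Bowtie2 and the build mm8. The quantifier, annotation and strand setting are not given in the sources used here. Expected counts were rounded and a gene not listed in a library was set to 0. Of 20287 gene IDs, 20234 matched the RefSeq table by ID and 9 by accession.

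Library totals were 10147277 to 10863845, so that 3 counts, used as the floor for a gene with no count, are 3 in about that many; intervals and floors cover counting error only. The test took genes whose FPKM averaged 0.5 or more across all 9 libraries and used edgeR 4.0.16 in R 4.3.3 with TMM factors (0.94 to 1.04), 1 mean per group and Benjamini-Hochberg adjustment over all genes. The 3 residual degrees of freedom came from the 3 KO pairs, and the WT conditions, with 1 library each, were taken to vary as much. The standard error is the log2 fold change divided by the square root of F, and can lie below the counting error at few counts. Alternatives used DESeq2 1.42.0, limma 3.58.1, other filters, other sample sets, a replicate block, an offset for gene length (loess, span 0.5) and 1 library left out at a time. The fit was also tested on simulated data.

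Genes were named by a rule: the 12 largest rises and 12 largest falls among called genes with separate ranges and a mean of at least 1 FPKM over the 4 libraries, up to 5 rises, 5 falls and 2 genes not called per list, called promoter holders, and 32 genes whatever their values. Members and lists were chosen with earlier results of these data known. Promoter sequences are RefSeq's. Some list members are not reported here by name.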

Additional observations from a re-analysis of the deposited data

Results flagged for a closer look

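The results below were picked out because the KO and WT embryoid body responses differed in the interaction test of edgeR, which called 5857 of 13990 genes. Each value is the KO response minus the WT response on the log2 scale, and each response is embryoid bodies over pluripotent culture. The WT response rests on 1 library per condition. None of these values carries a length correction.

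The large rises and falls below were chosen for the size of their KO change, which is part of the difference. Its sign was thus largely set by that choice and is no separate evidence. It was called for 8 of the 12 largest rises and 4 of the 12 largest falls. Among the large rises the KO response was higher for Zic2 (3.29), Gsx2 (3.55), Myb (3.07), Pdlim4 (3.03) and Maob (2.91). The same held for Fn3k (4.01), Gstm3 (2.88) and Rem2 (2.44), which had 1 to 3 counts in KO pluripotent culture. In all 8 of these genes the WT response was also positive, between 1.04 and 2.97. That of Fn3k rested on 14 against 7 counts and that of Gsx2 on 16 against 7. Among the large falls the WT response rested on 2 against 2 counts for Aspa and 4 against 12 for Ube2dnl1. The difference was -3.81 for Tesc, -4.06 for Ube2dnl1 and -4.98 for Aspa. For C1qtnf9 it was -10.37, a fitted value that depends on the prior count because WT pluripotent culture had 0 counts.

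In the pluripotency genes the KO response was higher for Klf4 (2.12), Esrrb (1.33), Zfp42 (1.10), Sox2 (0.90) and Tfcp2l1 (0.86). Among formative genes it was higher for Otx2 (1.23) and lower for Fgf5 (-4.15) and Pou3f1 (-2.60). In the lineage genes it was lower for T (-7.38), Mixl1 (-4.31) and Gata6 (-3.29) and higher for Sox1 (2.77). Of these, T, Mixl1 and Gata6 had a positive WT and a negative KO value, although the KO change of T was not called.

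The D-type cyclins differed, with Ccnd1 at 3.98, Ccnd2 at 4.80 and Ccnd3 at -0.48, and Ccnd2 had only 2 counts in KO pluripotent culture. The NODAL inhibitors Lefty1 and Lefty2 differed by 1.56 and 0.56, and the ligand Bmp4 by -0.88. Hexa differed by -2.48 and Lamtor5, the gene targeted in the KO line, by -0.71.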

How the results depend on the processing

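The counts over all tested genes kept within 1.5 times of the main value under the alternatives run, apart from those given here. Counts of list members moved further for many lists, as given beside those lists. With DESeq2, besides those, 2 mesoderm and heart, 1 blood and endothelium, 1 v-ATPase and 5 autophagy genes rose and 3 mTOR genes fell. With the length correction 3 general pluripotency genes fell and 1 proliferation gene rose. With the replicate block as well 13 glycolysis genes rose. With limma on log2(FPKM + 1) 1 primitive streak gene and 1 DNA methylation gene fell and 4 v-ATPase genes rose, and with limma on log2(FPKM + 0.1) 3 p53 targets fell. With limma on log2(FPKM + 1), 1021 genes were higher and 532 lower by 2-fold or more, against 1772 and 931; a pseudocount of 1 lowers the fold of low genes. With DESeq2 the KO and WT responses differed for 3284 genes, 1728 higher and 1556 lower in KO and 1030 higher by 2-fold or more. The correlation with gene length was 0.335 with limma on log2(FPKM + 1), 0.224 with no filter, 0.346 at a mean FPKM of at least 1 and 0.018 with the length correction, which removes it by construction. Leaving out 1 library gave 0.294 to 0.329. Whether equal replicate numbers mark paired libraries is not known. The differences between replicates 1 and 2 correlated by 0.022, 0.071 and 0.183 between the KO groups, which cannot settle it. The 6 KO libraries gave 8552 calls without a replicate block. With a replicate block 9025 genes were called, and 8425 with the length correction as well, where the correlation with length was 0.018; the responses differed for 6626 and 5762 genes.

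Changes near 0 that were not called switched sign under some alternatives. The values with limma on log2(FPKM + 1) and on log2(FPKM + 0.1) were 0.04 and 0.04 for Zfp42, 0.08 and 0.09 for Dnmt3b, 0.08 and 0.08 for Nodal, and 0.00 and 0.00 for Foxa2. With the length correction, without and with the replicate block, they were 0.07 and 0.08 for Zfp42 and 0.07 and 0.07 for Nodal. Nodal was at 0.00 at a mean FPKM of at least 1. Gsc, with no count in the 4 libraries, was fitted at -0.01 with the replicate block and -0.00 with the length correction too. Leaving out 1 library gave -0.15 to 0.09 for Dnmt3b, -0.19 to 0.14 for Nodal, -2.4 to 2.3 for Foxa2 and -3.26 to 2.31 for Cdx2. Where a call of a named gene was lost, the cause was not tested. Genes at a few counts, and the WT comparison with 1 library per condition, are limited by depth and replication.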

Other observations

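Genes of the two-cell-like state, a rare state of embryonic stem cells that expresses genes of the early embryo, were more often higher in KO embryoid bodies. Of 12 listed genes 8 were tested, 6 rose and 0 fell, with a median log2 change of 1.46, against 31.0% of all tested genes that rose. Zscan4f was at 29.5 and 21.0 FPKM in KO embryoid bodies and at 4.96 and 8.02 FPKM in KO pluripotent culture (1.85 ± 0.20). Zscan4c was at 11.4 and 6.06 FPKM in KO embryoid bodies and at 1.15 and 2.19 FPKM in KO pluripotent culture (2.28 ± 0.31). The Zscan4 genes are near-identical copies between which reads can be split, so their values are uncertain gene by gene. Such copies are among the 6 genes that rose, so these are not 6 separate measurements. The two-cell-like markers summed to 48.8 and 30.8 FPKM in KO embryoid bodies and 7.37 and 12.7 FPKM in KO pluripotent culture. The WT sums were higher, at 181 FPKM in the embryoid body and 102 FPKM in pluripotent culture.

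Of 17 germ cell genes 8 rose and 4 fell. Prdm1, which encodes BLIMP1, the regulator of germ cell specification, was at 4.88 and 5.36 FPKM in KO embryoid bodies and at 0.69 FPKM in both KO pluripotent libraries (2.78 ± 0.16). Mael, a piRNA pathway gene, rose by 1.41 ± 0.17. Rhox5, an X-linked homeobox gene, was at 24.7 and 16.8 FPKM in KO embryoid bodies and at 99.9 and 64.5 FPKM in KO pluripotent culture (-2.10 ± 0.25). Of 27 imprinted genes 9 rose and 7 fell. H19 was at 9.93 and 7.16 FPKM in KO embryoid bodies and at 0.72 and 0.39 FPKM in KO pluripotent culture (3.83 ± 0.28), while its neighbour Igf2 was at 0.38 and 0.31 FPKM in KO embryoid bodies and at 1.32 and 1.68 FPKM in KO pluripotent culture (-2.15 ± 0.29). Of 18 antigen presentation genes 7 rose and 6 fell, with B2m, the light chain of class I molecules, at 86.4 and 76.5 FPKM in KO embryoid bodies and 128 FPKM in both KO pluripotent libraries (-0.76 ± 0.08).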
